A study of Mus musculus with 4 samples.

Results

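The regions described here are the last 20 positions of each tRNA family, at the 3′ end of the deposited coverage tables. They were taken by rule, as the last 20 rows of the forward-strand coverage of every family table other than the summed glycine table, and no measured value entered the choice. The rule gave 23 windows with 460 positions, of 1698 positions in the 23 families, and 454 of the 460 carried coverage in at least 1 library. The study sequenced small RNA of C57BL/6 bone marrow at postnatal day 8, in 2 libraries of Dnmt2-/- mice (Dnmt2 KO) and 2 of wild-type mice (WT). The RNA of both genotypes was treated with T4 polynucleotide kinase before ligation and the libraries were selected by size. The labels do not say how the deletion was made, whether animals were pooled, or whether the libraries of a genotype came from separate animals. The p-values below therefore measure only how far these libraries vary, and that variation may be technical.

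A tRNA ends in the T arm followed by the 3′ strand of the acceptor stem, and the cell adds the CCA tail that carries the amino acid after transcription. Cleavage in the T loop releases short 3′ fragments, and cleavage in the anticodon loop leaves longer 3′ pieces that run from there to the end. Dnmt2 is a tRNA methyltransferase that modifies a cytosine in the anticodon loop of tRNA-Asp, tRNA-Gly-GCC and tRNA-Val, upstream of the window. Window positions are counted here from 1 to 20, with 20 the last row of a table. No header or label relates the rows to standard tRNA numbering or says whether the CCA tail is included.

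Depth and table layout bear on all values. Coverage is given in the authors' units, in which 1 read at 1 position was worth 1.31e-05 and 2.80e-05 in Dnmt2 KO replicates 1 and 2, against 6.57e-06 and 1.35e-05 in WT replicates 1 and 2. The reads at the highest window position, summed over families, came to 16175 and 20485 in the Dnmt2 KO libraries, against 26233 and 24129 in the WT libraries. The highest window position of a family held a median of 240 and 334 reads in the Dnmt2 KO libraries, against 461 and 606 in the WT libraries. In 5 families (Asn, His, Phe, SeC and Sup) it held under 50 reads in at least 1 library. The summed glycine table, left out here, equalled its parts added from the first row in 288 of 292 values, although the parts have 70 and 73 rows. How genes of unequal length were joined within the other tables was not examined, so the last rows may not be the 3′ end of every gene in a family.

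The 3′ windows held little of the tRNA coverage, and 1 family held much of what there was. They took 2.52% and 2.79% of all forward coverage in the Dnmt2 KO libraries, against 2.26% and 2.02% in the WT libraries. The window of Asp, the family that carries aspartate, took 60.8% and 41.0% of all window coverage in the Dnmt2 KO libraries, against 59.0% and 43.6% in the WT libraries. Without Asp the windows took 1.02% and 1.69% of all coverage in the Dnmt2 KO libraries, against 0.958% and 1.17% in the WT libraries. Behind Asp, the highest mean window coverage over all 4 libraries belonged to Glu, Gln, Pro, Val, Arg, GlyGCC and Gly_non_GCC (the glycine families with and without the GCC anticodon), in that order. Libraries with larger units weigh more in this mean. By the mean share of all window coverage, Pro (7.34%) came before Gln (6.96%) and Leu (2.20%) before Gly_non_GCC (2.11%). The 3 highest windows together took 60.9% to 72.9% of all window coverage, depending on the library. The lowest window belonged to Sup, the suppressor family, with at most 5 reads at its highest position.

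**Figure D1:**
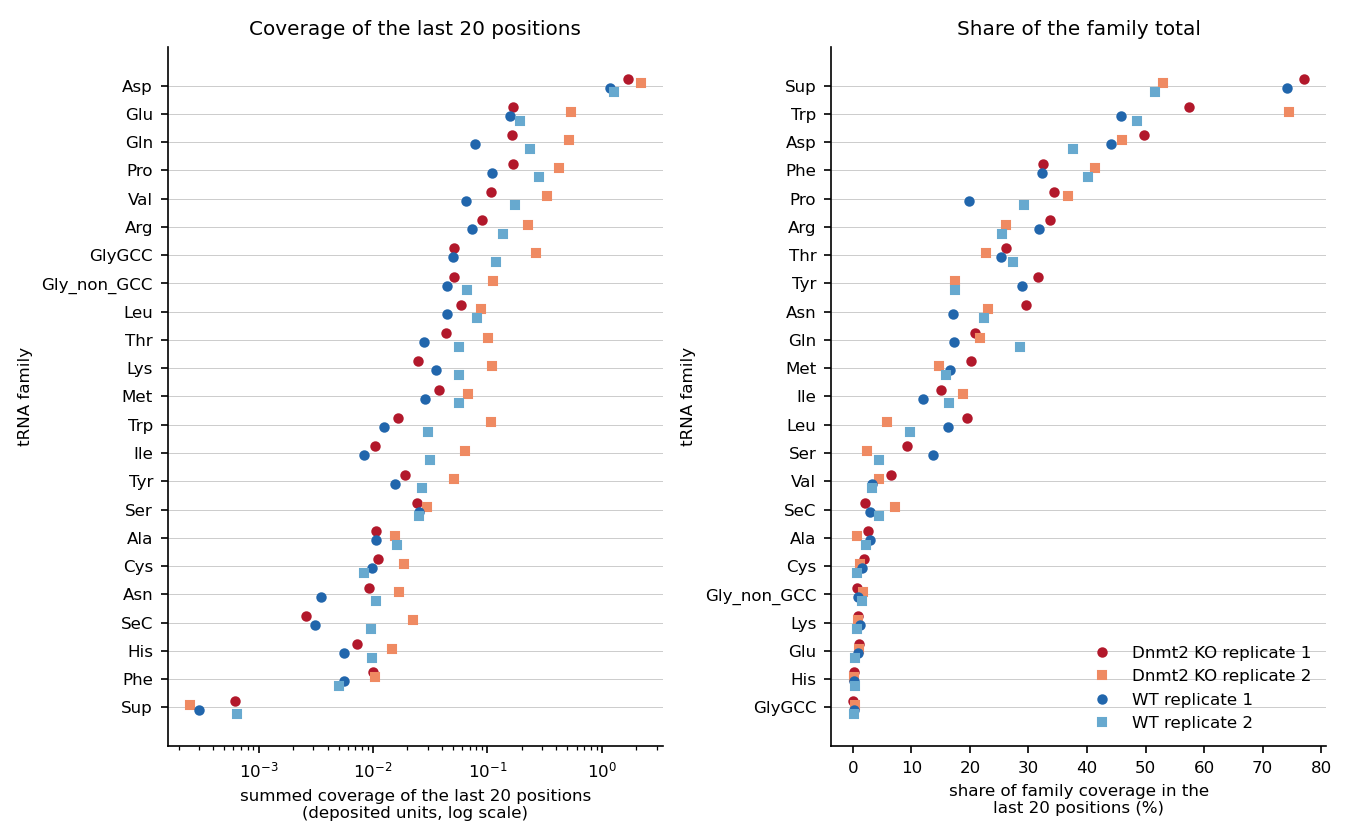
Coverage of the last 20 positions of 23 tRNA families in each library, summed in deposited units on a log axis (left) and as a share of the family's own coverage (right). Asp stands highest on the left with 1.17 to 2.18 units, and the shares on the right run from 0.0735% in GlyGCC to 77.0% in Sup, whose window held at most 5 reads.

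The share of a family's own coverage in its window does not depend on the constant that scales a library, and it split the families. The mean share over 4 libraries was above what an even spread along the tRNA would give in 6 families (Arg, Asp, Phe, Pro, Sup and Trp). It was over 20% in 10 families, between 5% and 20% in 4 families (Ile, Leu, Met and Ser), and under 5% in the other 9. Trp, the tryptophan family, had 57.4% and 74.5% of its coverage in the window in the Dnmt2 KO libraries, against 45.9% and 48.5% in the WT libraries. Asp had 49.7% and 46.0% in the Dnmt2 KO libraries, against 44.0% and 37.5% in the WT libraries.

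A high level did not always go with a high share. Glu, the glutamate family, ranked behind Asp in window coverage, yet its window held 1.00% and 0.955% of its coverage in the Dnmt2 KO libraries, against 0.815% and 0.348% in the WT libraries. GlyGCC had 0.0735% and 0.335% in the Dnmt2 KO libraries, against 0.101% and 0.205% in the WT libraries. Val, the valine family, had 6.51% and 4.53% in the Dnmt2 KO libraries, against 3.20% and 3.32% in the WT libraries. In these 3 families nearly all coverage lay upstream of the window.

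Coverage along the window took several shapes. The highest window position was 1 or 2 in all 4 libraries in 17 families, so the reads at their maximum spanned the start of the window or began there. Pro, the proline family, was the only one with its maximum between positions 8 and 10 in all 4 libraries. At window position 12 coverage was above 50% of the window maximum in all 4 libraries in 7 families (Asp, Gln, Glu, Gly_non_GCC, Pro, Ser and Val). It was below 50% in all 4 in 9 families (Ala, Arg, Cys, GlyGCC, Ile, Leu, Met, SeC and Thr), and the libraries were split in 7. A window that carries coverage is therefore not in every family a window of reads that reach the end.

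Asp and Glu had the highest mean summed window coverage, and neither stepped up by more than 28 reads at a position. Asp coverage held 7048 reads at position 1 and 5795 at position 19 in Dnmt2 KO replicate 1, and 4436 and 3357 in Dnmt2 KO replicate 2. The same positions held 9976 and 8067 reads in WT replicate 1, and 5601 and 3959 in WT replicate 2. Most of the Asp coverage at position 1 was thus still present at the next-to-last position in every library. Net coverage does not show whether the same reads ran through. Glu had 711 reads at position 1 and 510 at position 19 in Dnmt2 KO replicate 1, and 1327 and 711 in Dnmt2 KO replicate 2. It had 1383 and 945 reads in WT replicate 1, and 1182 and 417 in WT replicate 2. Glu coverage declined less along the window in both replicates numbered 1 than in both numbered 2.

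**Figure D2:**
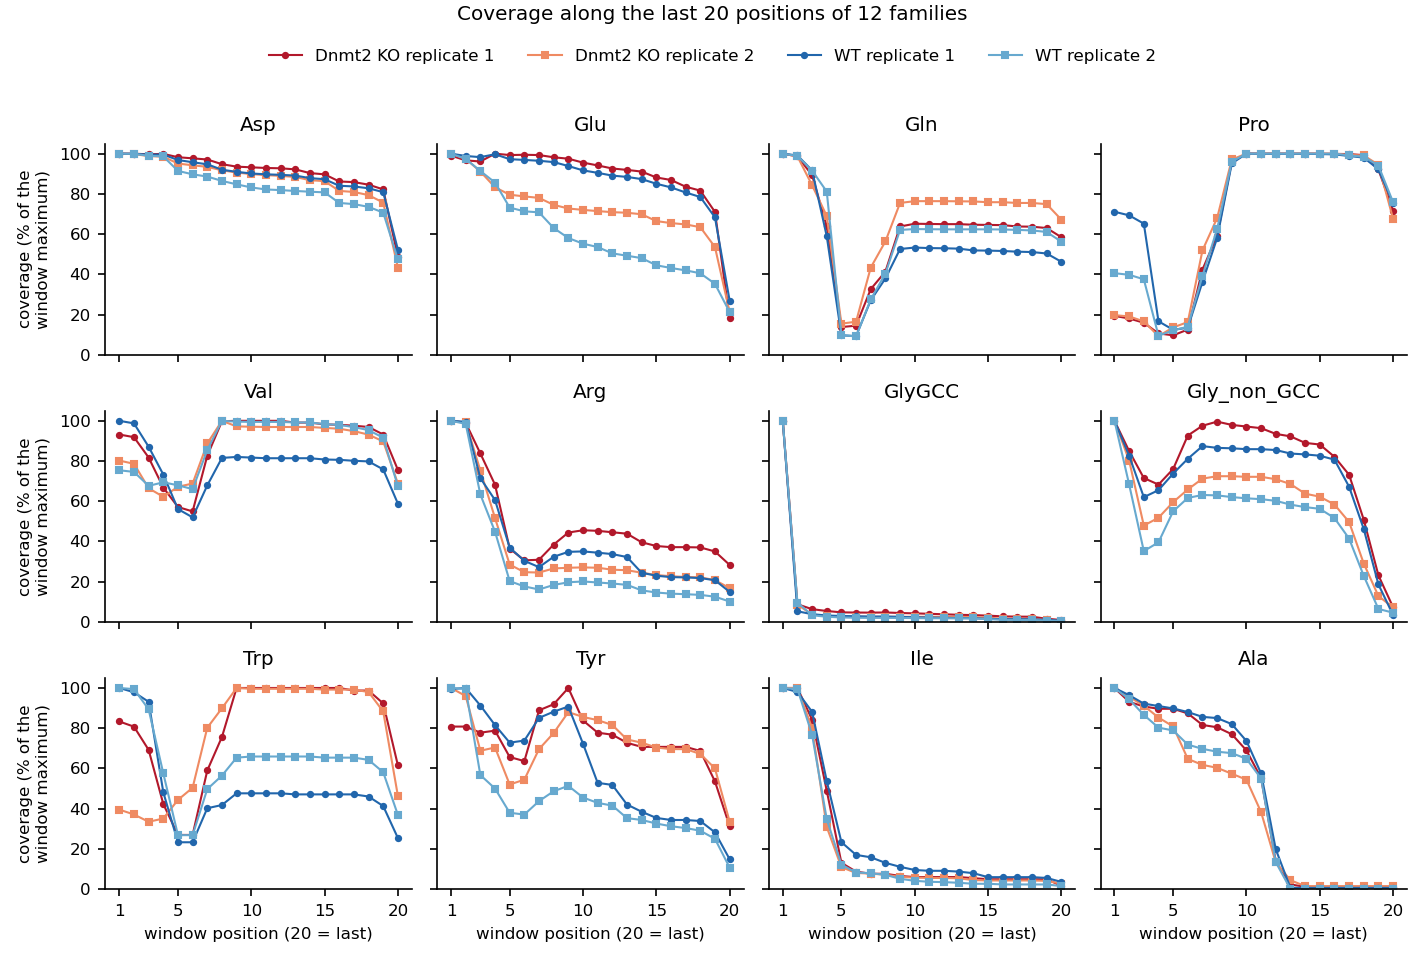
Coverage at window positions 1 to 20 as a percentage of the window maximum of the same library, for 12 families, with 1 line per library. Asp and Glu start at or near their maximum, Pro, Gln, Val and Trp step up from position 7 on, GlyGCC drops after position 1, and Ala reaches at most 3 reads from position 13 on.

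In other families coverage first dropped and then stepped up inside the window, at positions 7 to 9. A net step up of at least 10% of the window maximum in all 4 libraries occurred at position 7 in 4 families (Gln, Pro, Trp and Val), at position 8 in 2 (Pro and Val) and at position 9 in 2 (Gln and Pro). No other position had such a step in any family. Reads must start at these positions for coverage to step up there.

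Pro had the steepest step. Its coverage in Dnmt2 KO replicate 1 was 118 reads at position 6 and 905 at position 9, and in Dnmt2 KO replicate 2 it was 179 and 1070. It was 150 and 1064 reads in WT replicate 1, and 207 and 1425 in WT replicate 2. The ratio of position 9 to position 6 was between 5.98 and 7.67 in the 4 libraries. From position 10 to position 16 Pro coverage stayed level, at 942 and then 941 reads in Dnmt2 KO replicate 1, against 1118 and then 1114 in WT replicate 1. Pro coverage thus held its level after the step almost to the end.

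Gln, the glutamine family, combined both features. Its coverage in Dnmt2 KO replicate 1 was 1016 reads at position 2, 142 at position 5 and 657 at position 9, and in Dnmt2 KO replicate 2 it was 1320, 207 and 1010. It was 1108, 108 and 588 reads in WT replicate 1, and 1447, 144 and 909 in WT replicate 2. Every library thus had a trough at positions 5 and 6, with far fewer reads than at positions 2 and 9. Trp stepped up at lower depth, with a ratio of position 9 to position 6 between 1.98 and 3.71. Its coverage had dropped before the step in 3 libraries, while Dnmt2 KO replicate 2 held 92 reads at position 2 and 110 at position 5. In Val the ratio was between 1.41 and 1.82, and in 10 families in all it was above 1 in all 4 libraries. It was below 1 in all 4 in 5 families (Ala, Asp, Glu, GlyGCC and Ile).

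The net steps up, as a share of those steps plus the reads at position 1, give the smallest part of the window reads that must have started inside it. That share averaged over 20% in 7 families (Gln, Gly_non_GCC, Pro, Ser, Trp, Tyr and Val) and under 10% in the other 16. It was 82.4% and 82.2% for Pro in the Dnmt2 KO libraries, against 55.2% and 69.0% in the WT libraries. It was 46.7% and 62.7% for Trp in the Dnmt2 KO libraries, against 19.6% and 28.1% in the WT libraries. It was 31.6% and 27.3% for Tyr, the tyrosine family, in the Dnmt2 KO libraries, against 15.7% and 12.5% in the WT libraries. These 3 families were the only ones in which the genotypes did not overlap on this share, all with Dnmt2 KO above. The share was computed after the profiles had been seen and was not tested. Gln had 33.9% and 37.9% in the Dnmt2 KO libraries, against 30.6% and 34.8% in the WT libraries, so its genotypes overlapped.

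Another set lost its coverage early in the window. A net drop of at least 10% of the maximum in all 4 libraries, with a mean of at least 10 reads, occurred at position 5 in 12 families, at position 4 in 7 and at position 3 in 6. Coverage at position 5 was below that at position 2 in all 4 libraries in 20 families, and by over 50% in 8 (Arg, Cys, Gln, Ile, Leu, Met, SeC and Thr). Ile, the isoleucine family, had 184 and 560 reads at position 2 in the Dnmt2 KO libraries, against 248 and 604 in the WT libraries. At position 5 it had 24 and 61 reads in the Dnmt2 KO libraries, against 59 and 74 in the WT libraries. SeC, the selenocysteine family, had 39 and 149 reads at position 4 in the Dnmt2 KO libraries, against 61 and 136 in the WT libraries. At position 5 it had 6 and 11 reads in the Dnmt2 KO libraries, against 17 and 12 in the WT libraries. Both families kept few reads beyond this point, in all 4 libraries.

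**Figure D3:**
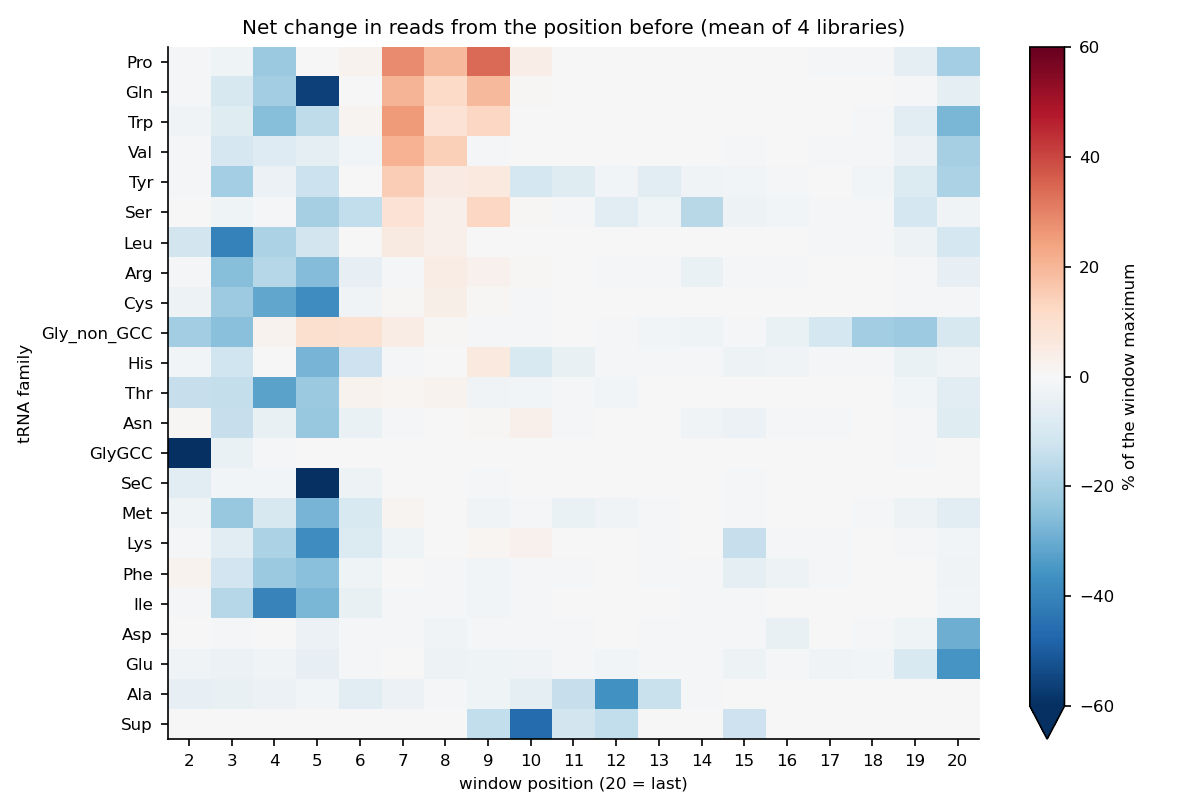
Net change in reads from the position before, as a percentage of the window maximum and averaged over 4 libraries, at window positions 2 to 20 of 23 families (red, more reads; blue, fewer). Steps up gather at positions 7 to 9, and drops gather at positions 3 to 5. Asp, Glu, Pro, Trp, Tyr and Val lose at least 10% at position 20 in each of the 4 libraries.

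The glycine windows differed from each other. GlyGCC had 2208 reads at position 1 and 194 at position 2 in Dnmt2 KO replicate 1, and 6355 and 550 in Dnmt2 KO replicate 2. It had 5328 and 282 reads in WT replicate 1, and 6271 and 604 in WT replicate 2. Position 1, which is position 51 of its 70 rows, alone held 56.7% and 67.1% of the GlyGCC window sum in the Dnmt2 KO libraries, against 69.6% and 71.3% in the WT libraries. The GlyGCC table has the fewest rows, so its window begins at an earlier position than those of the other families. Most of its window sum lay in this single row, ahead of the drop at position 2, so the GlyGCC window level depends on that row. Gly_non_GCC dropped at positions 2 and 3, began to rise at position 4 or 5, depending on the library, and lost its coverage at positions 18 and 19, ahead of the last row. Its last position held 18 and 24 reads in the Dnmt2 KO libraries, against 16 and 22 in the WT libraries.

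Ala and Sup did not fill their windows. Ala, the alanine family, has a table of 80 rows, and from window position 13 on it held at most 3 reads in any library. With its window ended at the last position of at least 5 reads, the Ala share was 7.19% and 3.11% in the Dnmt2 KO libraries, against 8.45% and 8.89% in the WT libraries. Over its last 20 rows the Ala share was 2.505% and 0.753% in the Dnmt2 KO libraries, against 2.92% and 2.25% in the WT libraries. Sup held 4 reads and 1 read at window position 1 in the Dnmt2 KO libraries, against 5 and 5 in the WT libraries, and its last 6 positions had no read in any library.

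At the last position many families lost coverage in a single step. The drop from position 19 to 20 was at least 10% of the window maximum in all 4 libraries in 6 families (Asp, Glu, Pro, Trp, Tyr and Val). Among the 19 families with at least 10 reads at position 19 in every library, the share of those reads that reached position 20 averaged under 70% in 9 and 70% or more in 10. For Asp it was 59.2% (95% interval 57.9 to 60.5) and 57.3% (55.6 to 59.0) in the Dnmt2 KO libraries, against 64.6% (63.6 to 65.7) and 67.1% (65.6 to 68.5) in the WT libraries. The intervals are exact binomial ones (Clopper-Pearson) and cover counting error only. The Asp libraries of the 2 genotypes did not overlap, at 58.3% ± 1.34 in Dnmt2 KO and 65.9% ± 1.71 in WT (SD, n = 2 each).

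Other families with deep windows ended in other ways. For Glu 25.5% and 39.7% of the reads at position 19 reached position 20 in the Dnmt2 KO libraries, against 39.5% and 60.2% in the WT libraries. For Pro it was 77.8% and 71.7% in the Dnmt2 KO libraries, against 81.6% and 80.7% in the WT libraries. For Gln it was 92.8% and 89.7% in the Dnmt2 KO libraries, against 91.8% and 92.1% in the WT libraries. Dnmt2 KO stood below WT without overlap in 3 of the 19 families (Asp, Phe and Pro) and above it in 4 (Arg, Asn, Lys and Tyr). This share was chosen after its values had been seen, so it carries no test.

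**Figure D4:**
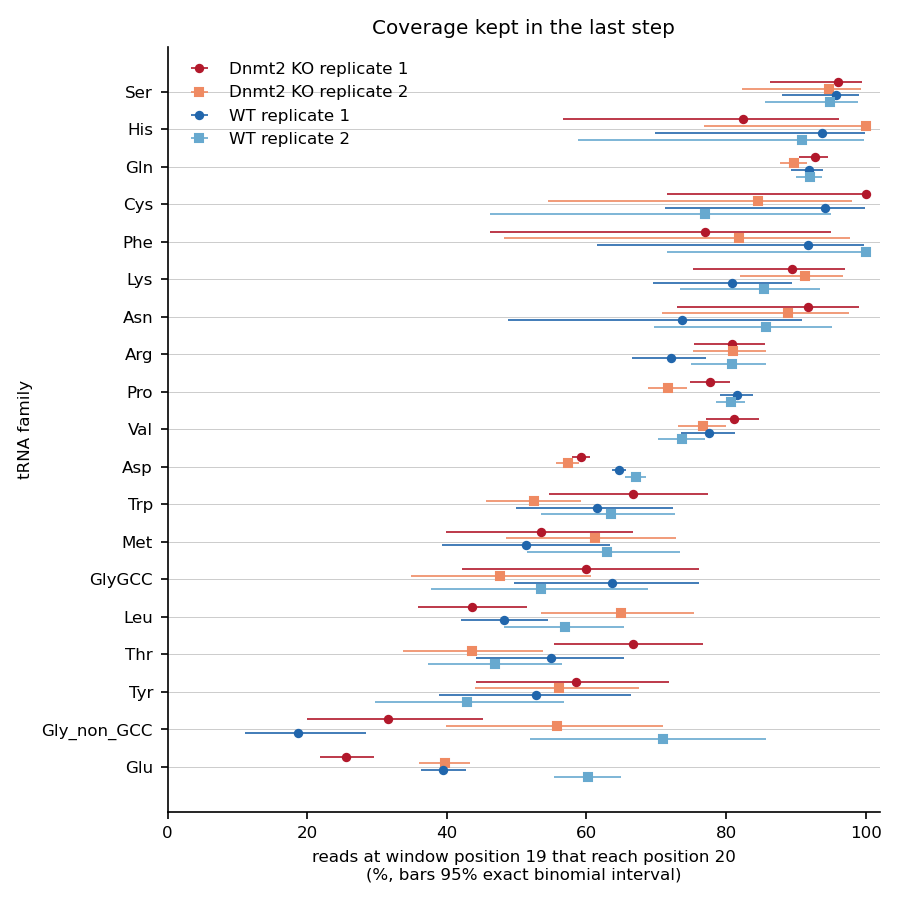
Share of the reads at window position 19 that reach position 20, in each library, for the 19 families with at least 10 reads at position 19 in every library; bars are exact 95% binomial intervals. In Asp both Dnmt2 KO libraries (59.2% and 57.3%) lie below both WT libraries (64.6% and 67.1%), with no overlap of intervals between genotypes.

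The comparison of genotypes asks whether loss of Dnmt2 goes with a different amount of 3′-end coverage. Asp window coverage summed to 1.68 and 2.18 units in the Dnmt2 KO libraries, against 1.17 and 1.26 units in the WT libraries, a mean of 1.93 ± 0.351 against 1.22 ± 0.0666 (SD, n = 2 each). For Asp the Dnmt2 KO libraries were thus the higher pair, and the log2 difference was 0.65 (SE 0.52, limma, Benjamini-Hochberg adjusted p = 0.833). Phe, the phenylalanine family, had 0.01002 and 0.0103 units in the Dnmt2 KO libraries, against 0.00559 and 0.00507 units in the WT libraries. Cys, the cysteine family, had 0.0112 and 0.0185 units in the Dnmt2 KO libraries, against 0.00977 and 0.00835 units in the WT libraries. Asp, Cys and Phe were the 3 of 23 families (13%) with Dnmt2 KO above WT without overlap, and none (0%) had it below. Phe and Cys rest on far fewer reads than Asp.

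No family passed the test of window coverage. Limma with Benjamini-Hochberg adjustment called 0 of 23 families (0%), 0 had an unadjusted p under 0.05, and the lowest adjusted p was 0.833. With 2 libraries against 2, 0.333 is the smallest two-sided p that an exact permutation test of a single value can give. The estimate was above 0 in 21 of 23 families, with a median log2 difference of 0.59. Gln had 0.165 and 0.520 units in the Dnmt2 KO libraries, against 0.0773 and 0.237 units in the WT libraries, and the largest estimate, 1.11 (SE 0.90, 95% interval -1.25 to 3.46). Leaving out 1 library at a time moved the Gln estimate between 0.28 and 1.93. Trp followed with 0.0165 and 0.107 units in the Dnmt2 KO libraries, against 0.0125 and 0.0304 units in the WT libraries, and an estimate of 1.08. Asn, the asparagine family, had 0.00914 and 0.0167 units in the Dnmt2 KO libraries, against 0.00347 and 0.0107 units in the WT libraries, and an estimate of 0.89. The lowest estimates were those of Ala and Sup, at -0.023 and -0.042.

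These levels depend on the unexplained scaling and on which libraries are compared. Dnmt2 KO replicate 2 was the highest of the 4 libraries in 21 families, and without it the median log2 difference was -0.05, with 8 families above 0 and Trp at -0.23. Without WT replicate 1 the median was 0.084. With the libraries rescaled to one total the median was 0.23 with 17 families above 0, and with one median family it was 0.11 with 16 above 0. Leaving out 1 library also unbalances the replicate numbers, and same-numbered libraries deviated alike from their group means (correlation 0.67 for window coverage). Within a replicate number the ratio of Dnmt2 KO to WT was above 1 in both numbers in 18 families and below 1 in both in none. For Trp this ratio was 1.32 in number 1 and 3.52 in number 2. What sets Dnmt2 KO replicate 2 apart was not tested.

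Shares within a family are free of the scaling, and none of them passed either. Limma with Benjamini-Hochberg adjustment on the log2 odds called 0 of 23 families (0%), 0 had an unadjusted p under 0.05, and the lowest adjusted p was 0.766. The share was higher in both Dnmt2 KO libraries than in both WT libraries in 6 families (26.1%), namely Asn, Asp, Glu, Pro, Trp and Val, and lower in 1 (4.35%), His. The estimate was above 0 in 14 families and below 0 in 9, with a median of 0.093. With a pseudocount of 0.0001 it was above 0 in 15 and below 0 in 8, and with 0.01 in 12 and 11.

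Trp had the largest share estimate. Its share was 66.0% ± 12.1 in Dnmt2 KO libraries and 47.2% ± 1.83 in WT libraries (SD, n = 2 each), and the log2 odds differed by 1.12 (SE 0.63) with a 95% interval of -0.16 to 2.39. Pro had 34.4% and 36.8% of its coverage in the window in the Dnmt2 KO libraries, against 19.8% and 29.2% in the WT libraries, an estimate of 0.79. Glu had an estimate of 0.88, Val 0.76 and Asp 0.42. Leaving out 1 library at a time gave 0.56 to 1.67 for Trp, 0.26 to 1.495 for Glu and 0.42 to 1.16 for Pro. The same SE of 0.63 holds for every family, since limma estimated one common variance here. At the other end, Ala had an estimate of -0.91, His -0.83 and Ser -0.78. His, the histidine family, had 0.154% and 0.159% in the Dnmt2 KO libraries, against 0.202% and 0.357% in the WT libraries. Ser, the serine family, had 9.22% and 2.43% in the Dnmt2 KO libraries, against 13.7% and 4.49% in the WT libraries, so its genotypes overlapped. Leu, the leucine family, had 19.5% and 5.84% in the Dnmt2 KO libraries, against 16.2% and 9.83% in the WT libraries, an estimate of -0.25.

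**Figure D5:**
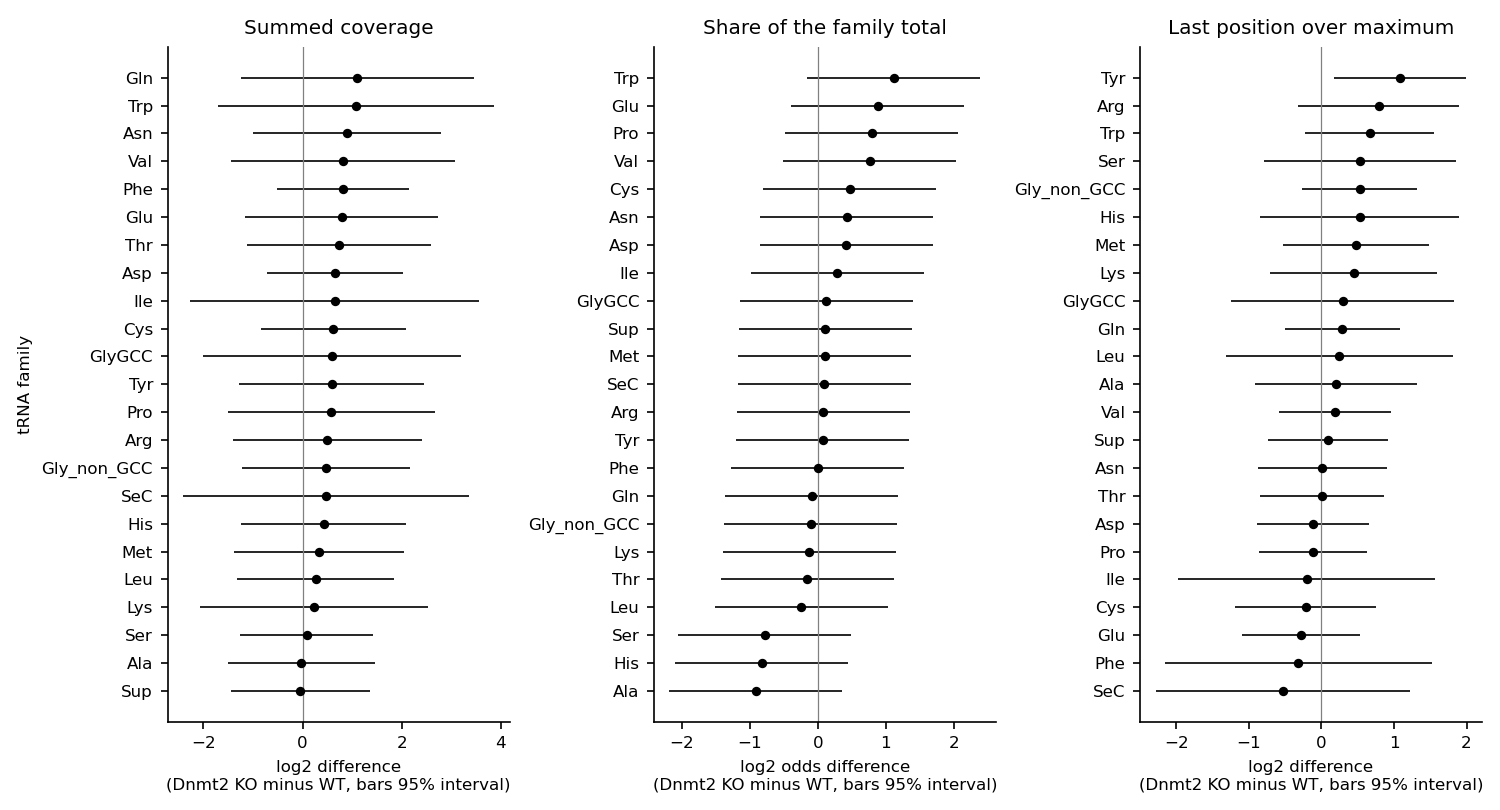
Estimated difference between Dnmt2 KO and WT for each of 23 families, for summed window coverage (left, log2), share of the family total (middle, log2 odds) and coverage of the last position over the window maximum (right, log2), with 95% intervals from limma over 4 libraries. All intervals on the left and in the middle include 0, and on the right that of Tyr, 0.17 to 1.999, does not, although its adjusted p is 0.663.

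Single positions gave no call. Limma over all 1656 covered positions of the series called 0 (0%), with 0 at an unadjusted p under 0.05 and a lowest adjusted p of 0.999. The genotypes did not overlap at 283 positions with Dnmt2 KO above WT (17.1%) and at 5 with Dnmt2 KO below (0.302%). In the windows this held at 101 of 454 positions upward (22.2%) and at 0 downward, and outside the windows at 182 of 1202 upward (15.1%) and at 5 downward. A read spans many positions, so neighbouring positions are not independent values.

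At the main pseudocount of 0.0001 the estimates lay higher toward the end of the window. They were above 0 at 115 of 138 window positions numbered 1 to 6, at 127 of 138 numbered 7 to 12 and at 178 of 178 numbered 13 to 20, with median log2 differences of 0.43, 0.56 and 0.69. With a pseudocount of 0.001 the medians were 0.35, 0.30 and 0.36, so the order did not hold there. It held under the other settings, with 0.44, 0.62 and 0.86 at a pseudocount of 0.00001. With the libraries rescaled to one total the medians were 0.075, 0.24 and 0.40. Outside the windows the estimates were above 0 at 963 of 1202 positions, with a median of 0.38. With the libraries rescaled to one total, 78 of 138 estimates at positions 1 to 6 and 162 of 178 at positions 13 to 20 were above 0. Without Dnmt2 KO replicate 2 the counts were 45 of 138 and 139 of 178. At the highest window position of the leading families the log2 difference was 0.61 for Asp (SE 0.65), 0.63 for Glu, 0.90 for Gln, 0.68 for Pro, 0.87 for Val, 0.19 for Arg, 0.40 for GlyGCC and 0.31 for Gly_non_GCC. Without Dnmt2 KO replicate 2 those of Glu, Arg, GlyGCC and Gly_non_GCC were below 0, at -0.36, -0.70, -0.91 and -0.45. Rescaled to one median family, those of Arg, GlyGCC and Gly_non_GCC were also below 0, at -0.29, -0.078 and -0.16.

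The last position as a share of the window maximum sets coverage at the end beside the highest coverage. The reads at the end need not be those at the maximum, since reads can start in between. Gln in Dnmt2 KO replicate 1 had 1030 reads at position 1, 142 at position 5 and 602 at position 20. The maximum of Trp lay at position 9 in both Dnmt2 KO libraries and at position 1 in both WT libraries. That of Tyr lay at positions 9 and 1 in the Dnmt2 KO libraries, against 2 and 1 in the WT libraries. Tyr had 31.3% and 33.6% in the Dnmt2 KO libraries, against 14.9% and 10.7% in the WT libraries, a mean of 32.5% ± 1.62 against 12.8% ± 2.94 (SD, n = 2 each). Its last position held 31 and 42 reads in the Dnmt2 KO libraries, against 29 and 24 in the WT libraries. Trp had 61.5% and 46.4% in the Dnmt2 KO libraries, against 25.4% and 36.9% in the WT libraries. Arg, the arginine family, had 28.3% and 16.8% in the Dnmt2 KO libraries, against 14.9% and 10.1% in the WT libraries. In all 3 families the Dnmt2 KO libraries were the higher pair. At position 1 the Tyr genotypes overlapped in deposited units, with 0.00105 and 0.00351 in the Dnmt2 KO libraries, against 0.00127 and 0.00303 in the WT libraries.

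No family passed here after adjustment. Limma with Benjamini-Hochberg adjustment called 0 of 23 families (0%), and 1 had an unadjusted p under 0.05. That was Tyr, with a log2 difference of 1.08 (SE 0.35, adjusted p = 0.663), followed by Arg at 0.79 and Trp at 0.66. With the replicate number as a block, 2 of 23 families (8.7%) passed, Tyr with an adjusted p of 0.0043 and Arg with 0.0424 (limma, Benjamini-Hochberg), but no label says that a number pairs libraries. The lowest estimates were those of SeC at -0.53, Phe at -0.32, Glu at -0.28 and Cys at -0.22. Those of SeC, Phe and Cys were above 0 without 1 or another library (at up to 0.34, 0.43 and 0.14). The pseudocount enters these estimates. Before it was added, Phe had 7.52% and 28.1% in the Dnmt2 KO libraries, against 7.69% and 29.7% in the WT libraries. Cys had 5.07% and 7.48% in the Dnmt2 KO libraries, against 4.34% and 8.13% in the WT libraries. Dnmt2 KO was above WT without overlap in 8 families (34.8%), namely Ala, Arg, Gln, Gly_non_GCC, His, Trp, Tyr and Val, and below in 1 (4.35%), Pro. Ala is listed among them although its last position held at most 1 read. Pro had 71.7% and 67.7% in the Dnmt2 KO libraries, against 75.2% and 75.9% in the WT libraries, a small but non-overlapping difference.

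The known Dnmt2 substrates Asp, GlyGCC and Val were not called on any measure (0 of 3). Their median log2 differences were 0.65 for window coverage, 0.42 for the log2 odds of the share and 0.18 for the last position over the maximum. Over all 23 families the same medians were 0.59, 0.093 and 0.20. GlyGCC, whose window sum was 0.0512 and 0.266 units in the Dnmt2 KO libraries, against 0.0502 and 0.119 units in the WT libraries, overlapped between genotypes, as did Val with 0.107 and 0.332 units in the Dnmt2 KO libraries, against 0.0645 and 0.174 units in the WT libraries. For Leu, Ser and SeC, tRNAs whose variable arm is long, the medians were 0.26, -0.25 and 0.25, and 0 of 3 were called. For the 5 families known for abundant 5′ fragments (GlyGCC, Glu, His, Lys and Val) they were 0.59, 0.12 and 0.29, and 0 of 5 were called.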

How the data were processed

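The deposited data are 48 tables of per-position coverage (signal), per the file headers with 1 column per library and strand, each table pairing a Dnmt2 KO and a WT library of one replicate number for one tRNA family. Per the submitters' processing notes, CASAVA 1.8.3 and Bowtie were used. Not given in the sources used here are the alignment settings, the build, the tRNA set and how multiply matching reads were placed. The authors scaled the signal by a constant per library that is not explained. All values (100%) were whole multiples of one step (within 0.01 of it), read here as 1 read.

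From the forward columns the last 20 rows of each of 23 families were summed, divided by the family total, and compared position by position. Limma 3.58.1 in R 4.3.3 (lmFit, eBayes, two-sided, Benjamini-Hochberg, threshold 0.05) was fitted to all 4 libraries with genotype as the only term, on log2(sum + 0.001), on log2 odds of the share with 0.001 added to both sides, on log2(coverage + 0.0001) at all 1656 covered positions, and on the log2 ratio of the last position to the window maximum with 0.0001 added to both. The pseudocounts weigh most at low coverage. They shrink differences between libraries in a sum or a position. In the log2 odds and the log2 ratio they can also enlarge or turn a difference, since they are in deposited units. The exact binomial intervals cover counting error alone, and PCR copies were not told apart by molecular identifiers. The limma intervals rest on the variation among the 4 libraries. The fits were also run on simulated data with independent noise. Same-numbered libraries and neighbouring positions are not independent here, so that run does not give the error rates in these data.

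The members, lists and measures were chosen with earlier results of these data known. Values per library are given, on at least 1 measure, for the 8 families with the highest mean window coverage, the Dnmt2 substrates, Gly_non_GCC and, as no family passed, the 4 largest estimates in each direction; other families were named after their values were seen. Alternatives covered scaling, pseudocount, window length, low-coverage filters, the replicate block and each library left out. No tRNA sequence is printed, as the reference used for the tables is not given.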

Additional observations from a re-analysis of the deposited data

How the results depend on the processing

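Of 593 recomputed estimates, 532 kept their direction and their side of the threshold, 59 turned in sign and 2 newly passed. Leaving out 1 library gave 38 of the 59 sign changes among 188 estimates, and the other alternatives gave 21 among 405. Part of the 405 could not turn in sign. The replicate block leaves every estimate as it is in this balanced design, and so do filters that only drop families or positions. These counts therefore overstate how stable the directions are. With the replicate block, the last position over the maximum gave 2 calls of 23 families (8.7%), Tyr at 1.08 (limma, adjusted p = 0.0043) and Arg at 0.79 (adjusted p = 0.0424); the block gave 0 calls for window coverage, share and positions. No label says what a replicate number shares, and the deviations of same-numbered libraries from their group means correlated at 0.67 to 0.80 on the 4 measures. Fitted to replicate number in place of genotype, limma with Benjamini-Hochberg adjustment called 523 of 1656 positions. For the last position over the maximum it called 6 of 23 families, and for window coverage and share it called 0.

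Without 1 library at a time (the lone library left in a genotype is assumed to vary like the others), the calls stayed at 0 for all 4 measures. Window coverage ranged from -0.051 to 1.62 for Glu, -0.097 to 1.26 for Pro, -0.17 to 1.18 for Arg, -0.59 to 1.77 for GlyGCC, -0.082 to 1.03 for Gly_non_GCC, -0.23 to 2.39 for Trp, -0.23 to 0.14 for Sup and -0.31 to 0.27 for Ala. The share ranged from -0.56 to 0.37 for Gln, -0.18 to 0.35 for Arg, -0.96 to 1.20 for GlyGCC, -0.70 to 0.49 for Gly_non_GCC, -1.80 to 0.23 for Ser and -1.23 to 0.74 for Leu. Single positions ranged from -0.36 to 1.62 for Glu, -0.035 to 1.40 for Pro, -0.70 to 1.07 for Arg, -0.91 to 1.71 for GlyGCC and -0.45 to 1.06 for Gly_non_GCC. The last position over the maximum ranged from -0.35 to 0.94 for GlyGCC, -1.40 to 0.34 for SeC, -1.07 to 0.43 for Phe, -0.58 to 0.14 for Cys and -0.053 to 1.12 for Ser.

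With the last 15 positions, window coverage of Sup was 0.0072, the share of Gln 0.031, and the last position over the maximum -0.20 for GlyGCC, 0.13 for Cys and -0.10 for Trp. With the last 25, window coverage of Ala was 0.0084 and the share -0.081 for Arg and -0.020 for GlyGCC. Ala was 0.013 with the highest position in place of the sum and 0.0018 with the window ended at the last position of 5 reads, an alternative chosen after seeing the data. The share of Gln was 0.094 when taken of the first and last 20 positions together. Rescaled to one total, the single position was -0.18 for Arg and -0.052 for Gly_non_GCC, and rescaled to one median family it was -0.29 for Arg, -0.078 for GlyGCC and -0.16 for Gly_non_GCC. With the mean of the last 3 positions, the value over the maximum was 0.023 for Asp and 0.24 for Glu. A pseudocount of 0.001 gave -0.13 for GlyGCC and -0.0059 for Gly_non_GCC, and one of 0.00001 gave 0.010 for Cys. The cause of these changes was not tested. Depth limits Sup, SeC, Phe, His and Asn, with under 50 reads at the highest window position in at least 1 library.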

Other observations

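The balance between the start of the window and its later part was described after the profiles had been seen, as the ratio of mean reads at positions 1 to 3 to mean reads at positions 11 to 18. In Pro it was 0.18 and 0.18 in the Dnmt2 KO libraries, against 0.69 and 0.39 in the WT libraries. In Trp it was 0.78 and 0.37 in the Dnmt2 KO libraries, against 2.06 and 1.47 in the WT libraries. In Tyr it was 1.10 and 1.20 in the Dnmt2 KO libraries, against 2.40 and 2.46 in the WT libraries. Both Dnmt2 KO libraries were below both WT libraries in 5 families (GlyGCC, Gln, Pro, Trp and Tyr) and above in 0, of 22 families with coverage at positions 11 to 18 in every library. Within a replicate number the ratio was lower in Dnmt2 KO in both numbers in 13 families and higher in both in 1. The ratio does not depend on the scaling of a library, and it was not tested.

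Reverse-strand coverage in the windows was 0.217% and 0.306% of the forward coverage in the Dnmt2 KO libraries, against 0.318% and 0.580% in the WT libraries.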
